A study of Mus musculus with 7 samples.

Results

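The 77 genes described here carry the names of mitochondrial ribosomal proteins, and all but Mrps36, described below, are known to encode parts of that ribosome. They are the protein-coding genes of the deposited tables whose names start with Mrpl or Mrps followed by a digit, 48 named for the large subunit and 29 for the small subunit, of 48440 genes in all. RNA had been sequenced from CD11b+ dendritic cells that had moved from the lung to the mediastinal lymph node of B6 mice. Both groups were exposed through the nose, 24 h earlier, to allergen of house dust mites plus LPS, and no untreated group is part of the comparison. The adult group holds 3 libraries from mice aged 7 weeks and the infant group 4 libraries from mice aged 2 to 3 weeks, each from cells sorted as B220-, CD64-, CD103-, CD11c+, MHCII high and CD11b+. The labels do not say that the libraries of a group came from separate mice or pools. A p-value here thus reflects only how far libraries of a group differ, which may be technical in part.

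The mitochondrial ribosome is built from ribosomal RNAs that the mitochondrial genome encodes and from proteins that nuclear genes encode, which are made in the cytosol and imported. It translates the mitochondrial messenger RNAs, all of which encode core subunits of the respiratory chain and the ATP synthase. Many of its proteins descend from bacterial ribosomal proteins and others are found only in mitochondria. Activated dendritic cells are known to lean on glycolysis, while resting ones rely more on mitochondrial respiration.

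Total exon reads ran from 18022302 to 22316484 per library. The markers of the sorted cells were Itgax, Itgam and the MHC class II genes, which encode sort markers, and Ccr7 and 5 others, which do not. Together they summed to 39340 to 48259 CPM (read counts scaled to a common library size) in adults and 41611 to 65184 in infants. Gene by gene, 3 of the 10 had a log2 fold change, infant over adult, above 0, with a median of -0.24. All adults lay above all infants in 3 of the 10, against 7.58% of all tested genes, and the reverse held in 0, against 7.97%. At an unadjusted edgeR p under 0.05, 2 were lower in infants, against 6.73% of all, and 0 higher, against 6.53%. The 6 markers of sorted-out cells summed to 21.9 to 39.2 CPM in adults and 18.7 to 44.0 in infants. Infant 2 stood apart from the other 6 libraries: it lay at 65.7 on a first principal component that held 36.5% of the variance, where the others lay between -22.3 and 8.59, and the nuclear RNA Malat1 reached 13539 CPM in it against 3058 to 4411 elsewhere. Other marker lists overlapped between the groups, with 657 to 1320 CPM in adults and 616 to 1700 in infants for 12 macrophage and monocyte genes, 30.9 to 33.9 and 32.4 to 48.7 for 7 B cell genes (Pax5 at or near 0 throughout), 9.27 to 14.8 and 7.70 to 12.5 for 8 T and NK cell genes, and 167 to 197 and 192 to 238 for 5 genes of the other conventional dendritic cells. The 4 plasmacytoid dendritic cell genes summed to 168 to 186 and 146 to 183 CPM, and the 5 neutrophil genes to 16.7 to 23.9 and 17 to 41.2 (Ly6g at or near 0 throughout). The 8 proliferation markers summed to 293 to 348 CPM in adults and 357 to 394 in infants, without overlap. Of these, 3 of 8 were higher in infants at an unadjusted edgeR p under 0.05, against 6.53% of all tested genes. The part of these markers in the results below was not tested. Reads of Xist and of Y-linked genes occurred together in all 4 infant libraries (117 to 285 and 340 to 1432 reads). Adults 1 and 3 had no Xist read and 3428 and 4066 Y-linked reads, whereas adult 2 had 546 Xist reads and 3 Y-linked reads. Adult 2 thus came from a mouse or mice other than those of adults 1 and 3, and the adult spread is not technical only. The infant libraries differed in this mix as well, with 117 Xist and 1115 Y-linked reads in infant 3 and 285 and 340 in infant 4. No adult library held both in number, unlike each infant library, and the part of sex in the results below was not tested. Since these are bulk samples, fewer cells of a type and less RNA per cell cannot be told apart.

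All 77 genes were read well enough to be tested, with 155 to 4024 exon reads per gene and library. Levels between genes were compared as RPKM, a read density per length of exon that allows for library size. Mean RPKM over the 7 libraries ran from 1.96 for Mrps5 to 148 for Mrpl14, with a median of 20.2 against 4.39 over all 12261 tested genes, and 71 of the 77 lay above that value. The median level was 21.7 RPKM for the large subunit genes and 19.4 for the small subunit genes. The 5 genes with the highest levels, Mrpl14, Mrpl42, Mrps21, Mrps18c and Mrps16, held 24.1% of the summed RPKM of the 77. The highest and lowest mean RNA levels per length of exon thus differed 75.2-fold among genes for proteins of 1 particle. This order depends on the exon length listed for each gene, which was 566 bp for Mrps16 and 8079 bp for Mrps10. Exon reads per library were 808 to 1216 for Mrps16 and 533 to 856 for Mrps10, which is among the lowest in RPKM.

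The genes with the highest levels were measured as follows. Mrpl14, a large subunit protein at the contact between the subunits, was at 132, 134 and 126 RPKM in adults and at 135, 190, 160 and 157 in infants. Mrpl42, a protein with no bacterial counterpart, was at 106, 106 and 118 RPKM in adults and at 108, 217, 138 and 109 in infants. Mrps21, the counterpart of bacterial S21, was at 95.2, 92.8 and 83.6 RPKM in adults and at 100.2, 141, 117 and 108 in infants. Infant 2 was the highest library for each of these, and for Mrpl42 its level was over that of the next library by more than the spread among the others. At the low end, Mrps5, which lines the path by which messenger RNA enters the small subunit, was at 2.24, 2.00 and 2.25 RPKM in adults and at 1.87, 1.11, 2.17 and 2.11 in infants. The next lowest were Mrps35 at a mean of 2.53 RPKM, Mrpl47 at 2.74, Mrps22 at 3.14 and Mrps10 at 3.72.

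**Figure D1:**
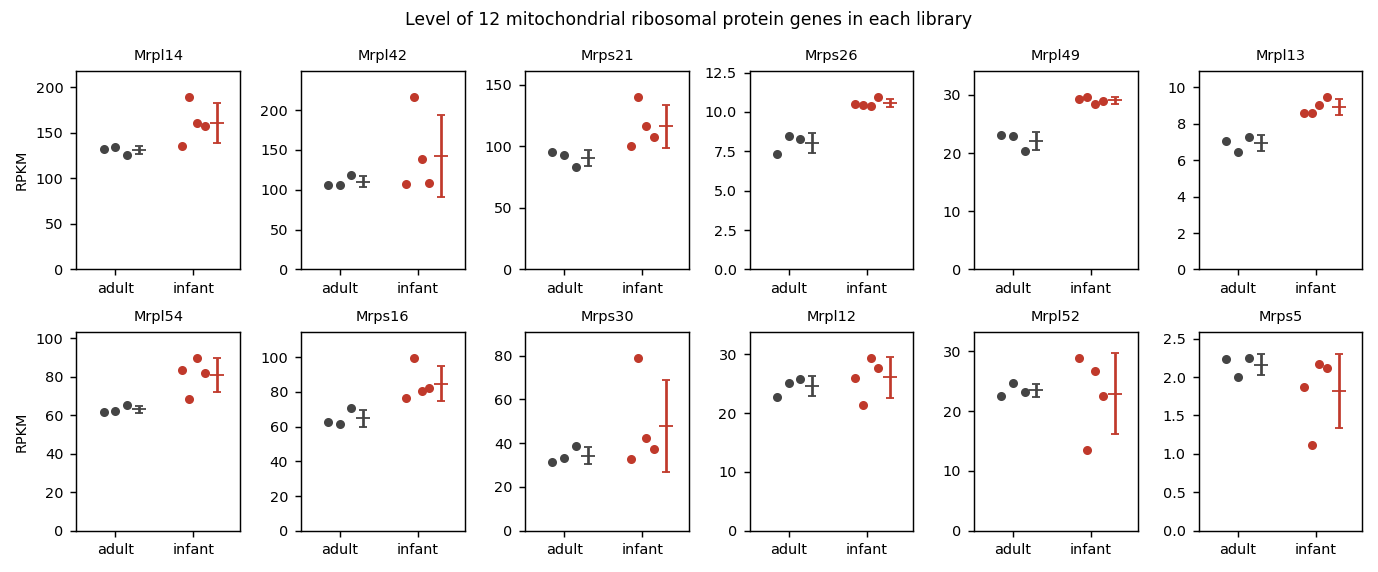
Level in RPKM (vertical axis, from 0) of 12 of the 77 genes in the 3 adult and 4 infant libraries. Each point is a library, and the bar beside it is the mean ± SD of the group. Infant levels of Mrps26, Mrpl49, Mrpl13, Mrpl54, Mrps16 and Mrps21 lay above all adult levels, whereas for Mrps30 and Mrpl42 infant 2 stood far above the other libraries.

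The comparison of infant with adult cells asked which genes differ between these ages after the same exposure. Most mitochondrial ribosomal protein genes had somewhat more RNA in infant than in adult libraries, and none of them differed enough to be called singly. The log2 fold change, infant over adult, was above 0 for 73 of the 77, against 50.2% of all tested genes, and 42 of the 77 reached 0.25, against 22.7% of all. Its median was 0.26, a 1.20-fold difference, against 0.0016 over all genes, and the range was -0.23 for Mrps5 to 0.53 for Mrps30. With edgeR (quasi-likelihood F test, Benjamini-Hochberg adjustment over 12261 genes), 0 of the 77 had an adjusted p under 0.05, and the smallest was 0.276, for Mrps26. The same test called 2 genes in all, 0.0163%. Before adjustment, 18 of the 77 had a p under 0.05, all with the higher level in infants, where 6.53% of all genes passed in that direction and 6.73% in the other. This count of 18 became 5 without adult 1, where 3.73% of all genes passed with the higher level in infants, 4 without adult 2, against 2.81%, and 8 without infant 3, against 4.8%. It was 28 with limma-voom and a quality weight per library, against 10.9%. DESeq2 gave 1 of the 77 an adjusted p under 0.05, Mrps26 at 0.0392, among 193 genes called, 1.57% of 12257, while limma-voom called 0 of the 77 and 3 genes in all, 0.0245%.

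The groups were also compared by overlap, without a model. In 22 of the 77 genes, the CPM of all 4 infant libraries lay above that of all 3 adult libraries, against 7.97% of all tested genes, and in 0 of the 77 the adults lay above all infants, against 7.58%. The 22 are Mrpl10, Mrpl13, Mrpl17, Mrpl21, Mrpl23, Mrpl27, Mrpl36, Mrpl39, Mrpl40, Mrpl46, Mrpl48, Mrpl49, Mrpl54, Mrps11, Mrps14, Mrps15, Mrps16, Mrps18a, Mrps21, Mrps26, Mrps34 and Mrps36. The share of all exon reads that fell on the 77 genes was 0.327%, 0.338% and 0.357% in adults and 0.373%, 0.446%, 0.403% and 0.381% in infants. The highest adult share was below the lowest infant share, and the gap between them was smaller than the spread within either group.

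**Figure D2:**
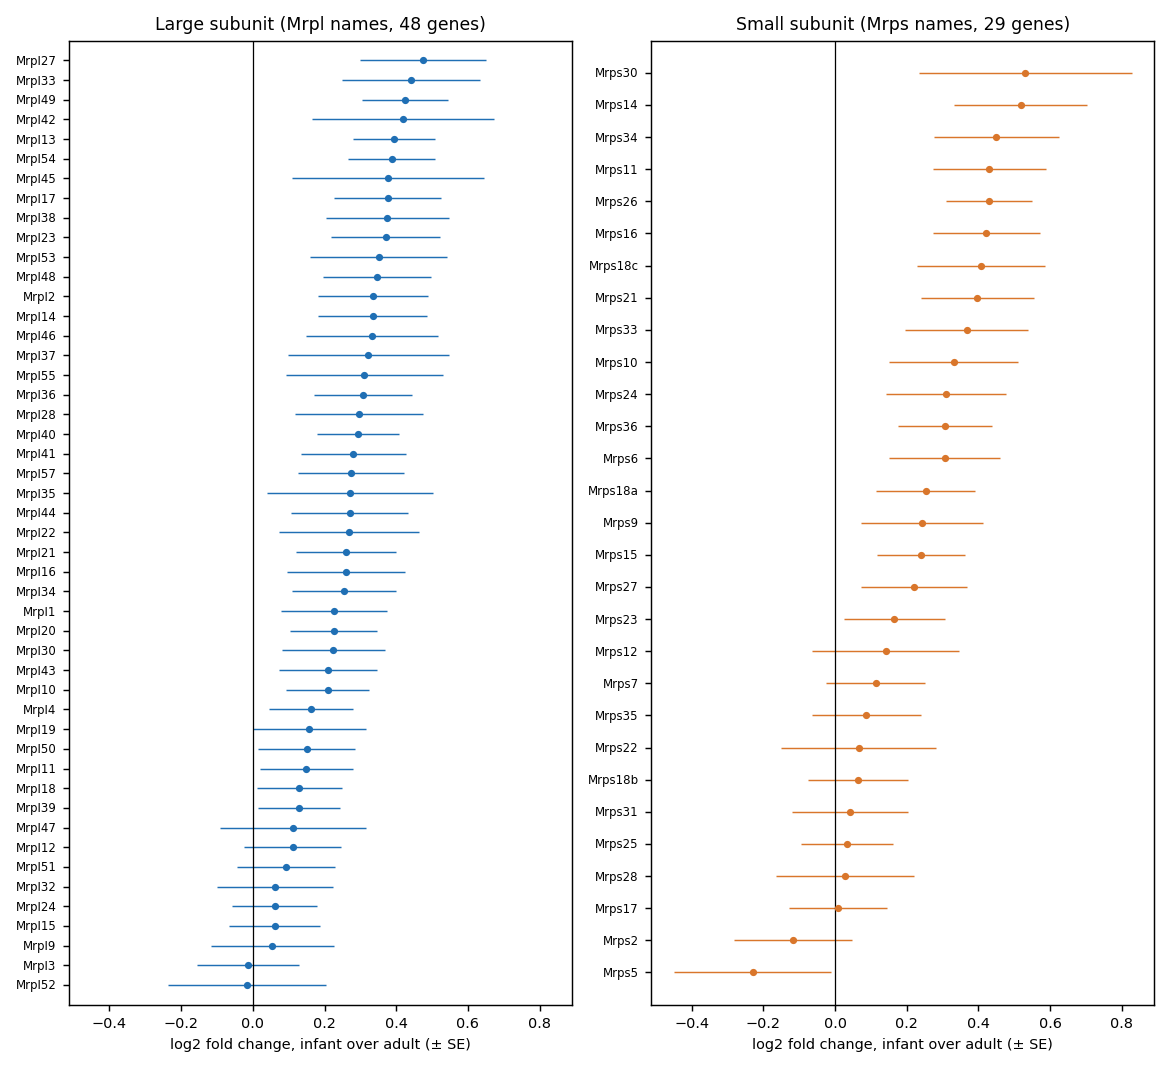
Log2 fold change, infant over adult, with its standard error (horizontal axis) for the 48 large subunit genes (left) and the 29 small subunit genes (right), sorted by value. The points lie to the right of 0 for 73 of the 77 genes, with Mrps5, Mrps2, Mrpl52 and Mrpl3 below it.

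Infant 2 carried part of the size of these differences. It was the highest of the 7 libraries for 42 of the 77 genes, it lay above the other 3 infants in 44 and below them in 19, against 33.6% and 35.9% of all genes. Without infant 2, the log2 fold change was above 0 for 72 of the 77, against 51.0% of all genes, and the median was 0.19 against 0.0068. Both fits put 71 genes above 0. Without it, 18 of the 77 again had an unadjusted p under 0.05 and the higher level in infants, against 6.92% of all genes, and the 3 remaining infants lay above all adults in 28 of the 77, against 11.3%. The adults lay above all 3 in 0 of the 77, against 9.93%.

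**Figure D3:**
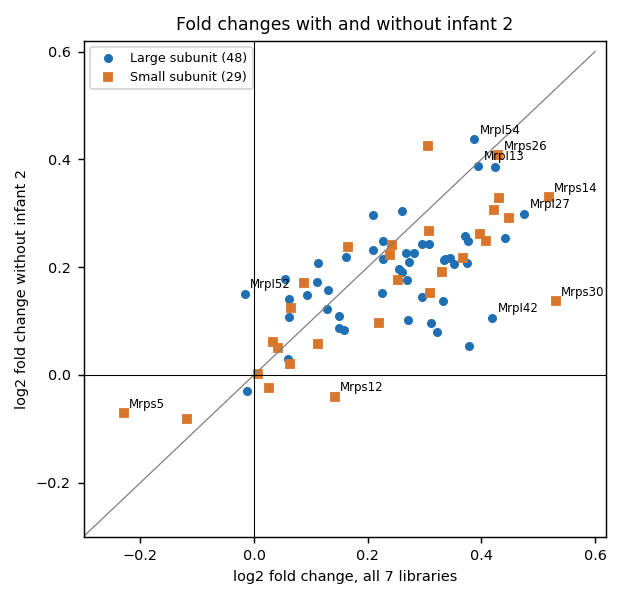
Log2 fold change, infant over adult, with all 7 libraries (horizontal axis) and without infant 2 (vertical axis) for the 77 genes. The line marks equal values. Mrps30 and Mrpl42 moved from 0.53 and 0.42 to 0.14 and 0.11, whereas Mrps26, Mrpl13 and Mrpl54 stayed near the line.

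Among the genes with the smallest p, those least moved by infant 2 were Mrps26, Mrpl49, Mrpl13 and Mrpl54. Mrps26 (chr2:130563742-130568695), a small subunit protein found only in mitochondria, was at 7.32, 8.47 and 8.28 RPKM in adults and at 10.5, 10.5, 10.4 and 11 in infants. The groups did not overlap and the infants differed little among themselves. Its log2 fold change was 0.43 ± 0.12 (SE) with an unadjusted edgeR p of 0.0046 and an adjusted p of 0.276, and it was 0.41 without infant 2. Mrpl49 (chr19:6053630-6057751), a large subunit protein found only in mitochondria, was at 23.1, 23.0 and 20.3 RPKM in adults and at 29.2, 29.7, 28.4 and 29 in infants. Its log2 fold change was 0.42 ± 0.12 (SE; edgeR adjusted p 0.283), and 0.39 without infant 2. Here too the infant libraries lay closer to each other than to any adult.

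Mrpl13, the counterpart of bacterial L13, lies on chromosome 15 at 55534094 to 55557748. It was at 7.07, 6.44 and 7.29 RPKM in adults and at 8.62, 8.58, 9.03 and 9.50 in infants, a log2 fold change of 0.39 ± 0.11 (SE; edgeR adjusted p 0.283) that was the same without infant 2. Mrpl54, found in mitochondria and not in bacteria, was at 61.5, 62.4 and 65.1 RPKM in adults and at 83.4, 68.4, 89.8 and 82.0 in infants. Infant 2 was the lowest infant for Mrpl54, and the log2 fold change of 0.39 ± 0.12 (SE; edgeR adjusted p 0.297) became 0.44 without that library. None of these 4 genes had over 1% of their exon reads mapping to several places.

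The 6 genes with the highest fold changes all had lower ones without infant 2, and that of Mrps30 rested mostly on this library. Mrps30, which carries a small subunit name but sits in the large subunit in structures of the mammalian ribosome, was at 31.2, 33.0 and 38.6 RPKM in adults and at 32.6, 79.0, 42.4 and 37.6 in infants. Only infant 2 was far above the adults, and the log2 fold change of 0.53 ± 0.30 (SE) became 0.14 without it. Mrps14, the counterpart of bacterial S14, was at 17, 16.7 and 20.4 RPKM in adults and at 22.4, 32.8, 24.0 and 21.3 in infants. Its groups did not overlap, and the log2 fold change of 0.52 ± 0.19 became 0.33 without infant 2. Mrpl27, whose bacterial counterpart reaches toward the site of peptide bond formation, was at 53.8, 51.0 and 54.8 RPKM in adults and at 61.5, 92.5, 71.0 and 63.3 in infants. Its log2 fold change was 0.48 ± 0.18, and 0.30 without infant 2. Of the other 3, Mrpl33 was at 0.44 ± 0.19, Mrps34 at 0.45 ± 0.17 and Mrps11 at 0.43 ± 0.16, and they were at 0.25, 0.29 and 0.33 without infant 2. Mrpl33 and Mrps34 had 40.8% and 66.7% of their reads mapping to several places, and exons of Mapk8ip3 on the other strand cover 63.4% of the Mrps34 exons, so that reads of that pair cannot be told apart without strand.

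At the other end, 4 genes had a log2 fold change below 0. Mrps5 was at -0.23 ± 0.22 (SE) and at -0.07 without infant 2, its lowest library. Mrps2, the counterpart of bacterial S2, was at -0.12 ± 0.16, with 7.18, 6.79 and 9.55 RPKM in adults and 8.21, 6.21, 7.25 and 6.69 in infants. Adult 3 was the highest library there, and the sign turned to 0.04 without it. Mrpl52, found in mitochondria and not in bacteria, was at -0.02 ± 0.22, with 22.5, 24.7 and 23.2 RPKM in adults and 28.9, 13.5, 26.7 and 22.5 in infants, and at 0.15 without infant 2. Mrpl3, which reaches toward the peptidyl transferase centre in bacterial ribosomes, was at -0.01 ± 0.14. Mrps17 at 0.01 ± 0.14 and Mrps28 at 0.03 ± 0.19 were the lowest of those above 0, and without scaling factors both were below it, at -0.03 and -0.02.

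The large and small subunit genes were compared by counts and medians. Above 0 were 46 of 48 large subunit genes and 27 of 29 small subunit genes, with median log2 fold changes of 0.27 and 0.24, a difference of 0.026. An unadjusted p under 0.05 with the higher level in infants was found for 10 large and 8 small subunit genes, against 6.53% of all tested genes. The infants lay above all adults for 13 and 9, against 7.97%. Without infant 2, the medians were 0.20 and 0.18, and their difference was between -0.026 and 0.072 over the fits that left out 1 library each. In each library the 2 medians moved together: centred per gene, the large subunit median was at -0.16, -0.17 and -0.06 log2 CPM in adults and at -0.0034, 0.27, 0.18 and 0.03 in infants, and the small subunit median was at -0.17, -0.16 and -0.07 in adults and at -0.06, 0.24, 0.16 and -0.02 in infants. Infants 2 and 3 were the highest for both subunits, and infants 1 and 4 lay just above adult 3.

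Summed RPKM of the large subunit genes was 1277 to 1370 in adults and 1454 to 1728 in infants, and that of the small subunit genes was 673 to 722 and 756 to 960. The ratio of the 2 sums was 1.90, 1.89 and 1.90 in adults and 1.92, 1.80, 1.87 and 1.84 in infants. The infant ratios lay on both sides of the adult ones, with infant 2 the lowest. Counting Mrps18a and Mrps30 with the large subunit, where structures place them, and leaving out Mrps36, a component of the 2-oxoglutarate dehydrogenase complex despite its name, gave medians of 0.27 and 0.23.

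**Figure D4:**
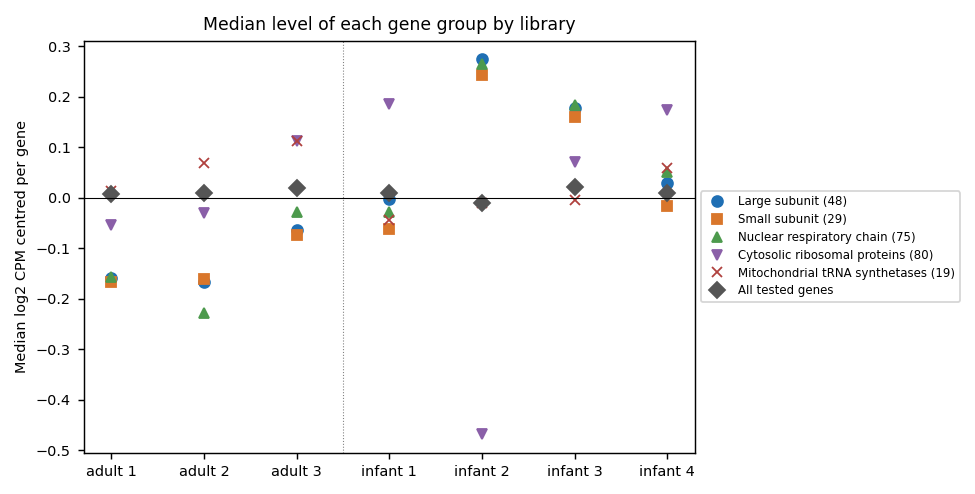
Median log2 CPM, centred per gene over the 7 libraries (vertical axis), of 6 gene groups in each library (horizontal axis). The large and small subunit medians and that of the nuclear respiratory chain genes lay highest in infants 2 and 3, while the median of cytosolic ribosomal protein genes was at -0.47 in infant 2.

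Genes with a counterpart in bacterial ribosomes and genes without one were also set side by side. The median log2 fold change was 0.24 for the 30 large subunit genes with a counterpart and 0.31 for the 18 without. It was 0.24 for 17 small subunit genes with a counterpart and 0.17 for 9 without, leaving out Mrps18a, Mrps30 and Mrps36. Without infant 2, the values were 0.20 and 0.19 for the large subunit, in the other order, and 0.19 and 0.17 for the small subunit. Among the 3 counterparts of bacterial S18, Mrps18c had a log2 fold change of 0.41 ± 0.18 (SE), Mrps18a 0.25 ± 0.14 and Mrps18b 0.06 ± 0.14. Without infant 2 they were at 0.25, 0.18 and 0.02 and thus lay closer together. Their mean levels differed as well, at 67.8 ± 8.13 RPKM (SD, n = 3) in adults and 87.6 ± 16.2 (n = 4) in infants for Mrps18c, 12.6 ± 0.288 and 14.7 ± 1.54 for Mrps18a, and 12.5 ± 0.796 and 12.7 ± 0.898 for Mrps18b. Reads mapping to several places made up 45.9% of the Mrps18b reads and 35.1% of the Mrps18a reads.

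The stalk of the large subunit, which recruits translation factors, is formed by Mrpl10 and copies of Mrpl12. Mrpl10 was at 24.2, 23.8 and 23.6 RPKM in adults and at 27.0, 24.3, 29.2 and 27.7 in infants, with a log2 fold change of 0.21 ± 0.12 (SE). Mrpl12 was at 22.8, 25.2 and 25.9 RPKM in adults and at 25.9, 21.4, 29.4 and 27.6 in infants, with one of 0.11 ± 0.14, and of 0.17 without infant 2. The groups overlapped for Mrpl12, whose lowest library was infant 2, and did not for Mrpl10. Mrps12, part of the decoding centre, was at 0.14 ± 0.21, and at -0.04 without infant 2. Mrps16, the counterpart of bacterial S16, was at 62.7, 61.3 and 70.5 RPKM in adults and at 76.5, 99.6, 80.7 and 82.5 in infants, with a log2 fold change of 0.42 ± 0.15. Mrpl57 was at 0.27 ± 0.15 and Mrps36 at 0.31 ± 0.13.

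The region around the transcription start was examined for 68 of the 77 genes that have a window in the RefSeq promoter table (GRCm38.p6, the mm10 assembly), which runs from 250 bases before to 50 after the annotated start. Mrpl13, Mrpl15, Mrpl19, Mrpl38, Mrpl4, Mrpl54, Mrps28, Mrps34 and Mrps35 had none. The 6 stretches printed here run from 150 bases before the start to 29 after it. Mrps26 and Mrpl49 are shown as the genes with the smallest p that have a window, Mrpl27 and Mrps14 as genes with high fold changes, Mrpl12 as the stalk protein, and Mrps5 as the gene with the lowest fold change. Capitals mark matches to the core motif of NRF1, CCGGAAG (ETS factors, among them GABP) or AAGATGGC (YY1) on either strand.
Mrps26, chr2:130563607-130563785, forward strand: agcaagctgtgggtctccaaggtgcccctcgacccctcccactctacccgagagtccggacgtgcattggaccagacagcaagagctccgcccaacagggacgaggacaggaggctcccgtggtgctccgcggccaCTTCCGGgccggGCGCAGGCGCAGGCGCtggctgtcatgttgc
Mrpl49, chr19:6057727-6057905, reverse strand: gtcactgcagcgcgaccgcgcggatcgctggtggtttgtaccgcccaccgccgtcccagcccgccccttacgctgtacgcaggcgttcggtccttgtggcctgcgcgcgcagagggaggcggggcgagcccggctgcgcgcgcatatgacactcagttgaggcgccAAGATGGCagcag
Mrpl27, chr11:94653641-94653819, forward strand: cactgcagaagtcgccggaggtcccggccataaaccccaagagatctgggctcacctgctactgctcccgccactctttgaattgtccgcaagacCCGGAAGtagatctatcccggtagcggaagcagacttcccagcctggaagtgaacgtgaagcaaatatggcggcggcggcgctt
Mrps14, chr1:160195065-160195243, forward strand: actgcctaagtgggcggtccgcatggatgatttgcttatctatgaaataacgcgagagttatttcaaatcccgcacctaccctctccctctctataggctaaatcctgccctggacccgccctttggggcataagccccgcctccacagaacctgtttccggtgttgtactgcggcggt
Mrpl12, chr11:120484487-120484665, forward strand: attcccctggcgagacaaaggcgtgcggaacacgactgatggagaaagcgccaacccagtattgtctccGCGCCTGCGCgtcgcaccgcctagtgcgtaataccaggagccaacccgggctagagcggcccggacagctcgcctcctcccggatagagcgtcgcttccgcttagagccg
Mrps5, chr2:127587276-127587454, forward strand: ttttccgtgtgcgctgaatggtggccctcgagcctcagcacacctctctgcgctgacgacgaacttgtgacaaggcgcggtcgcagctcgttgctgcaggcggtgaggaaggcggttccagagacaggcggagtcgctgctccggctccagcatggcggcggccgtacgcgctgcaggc

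In these stretches, Mrps26 holds an ETS match followed by a pair of NRF1 matches that overlap each other, Mrpl49 a YY1 match after the annotated start, Mrpl27 an ETS match and Mrpl12 an NRF1 match, and neither Mrps14 nor Mrps5 holds any of the 3. Over the full windows, the NRF1 motif was found in 19.1% of the 68 genes, against 4.78% of 27025 promoters in the table and 11% of those of 8963 tested protein-coding genes. The ETS motif was found in 35.3%, against 9.12% and 19.3%, and the YY1 motif in 17.6%, against 2.88% and 5.02%. At least 1 of the 3 was found in 41 of the 68, or 60.3%, against 15.2% and 31.4%. GGGCGG (SP1) was found in 50%, against 65.0% of tested genes and 35.9% over the whole table. CCAAT (NF-Y) was at 39.7% against 39.1% of tested genes, TATAAA at 5.88% against 6.57% and CACGTG (E-box) at 7.35% against 10.3%. The motifs were counted separately, also where matches overlap. The median log2 fold change was 0.27 for the 41 genes with at least 1 of the first 3 motifs and 0.26 for the 27 without. A match is a run of letters and not a shown binding site.

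Of the 77 genes, 18 start within 1000 bp of the start of a protein-coding gene on the other strand that runs away from them, 23.4%, against 10.8% of 11580 tested protein-coding genes, with a median distance of 82 bp. Of the 18 partners, 17 were tested, and 11 of these had a log2 fold change above 0 with a median of 0.11, while 16 of the 17 ribosomal protein genes beside them were above 0 with a median of 0.27. Mrpl49 starts 59 bp from Fau, which encodes a cytosolic ribosomal protein and was at 0.32 ± 0.11 (SE; edgeR adjusted p 0.317). Mrpl54 starts 26 bp from Apba3, at 0.11 ± 0.14. Mrps12 starts 172 bp from Sars2, which encodes the mitochondrial seryl-tRNA synthetase, at 0.25 ± 0.20. Mrpl46 and Mrps11, both among the 77, are read in opposite directions on chromosome 7 and share 173 exon bp, and both had groups that did not overlap.

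The other proteins of the mitochondrial ribosome, which carry other names, had values in the same range. Their list also holds Oxa1l, which is not named as a ribosomal protein. Of the 7 genes of this list, 7 had a log2 fold change above 0, with a median of 0.19, and 0 were called by edgeR. Before adjustment, 2 passed 0.05 with the higher level in infants, against 6.53% of all tested genes. DESeq2 called 1 of the 7, against 1.57% of all. EdgeR called 0 genes of the lists that follow as well. Dap3 and Ptcd3, of the small subunit, were at 0.08 ± 0.14 (SE) and 0.19 ± 0.16, and at 0.15 and 0.04 without infant 2. Chchd1 and Aurkaip1, also of the small subunit, were at 0.18 ± 0.12 and 0.33 ± 0.16, and at 0.16 and 0.17 without infant 2. Gadd45gip1, near the exit of the peptide tunnel, was at 12.1, 12.3 and 14.6 RPKM in adults and at 17.2, 20.4, 17.7 and 18.2 in infants, with a log2 fold change of 0.53 ± 0.14 (edgeR adjusted p 0.262, DESeq2 0.0467). Its infant libraries lay above all adults. Ict1, also called Mrpl58, which frees peptides from stalled ribosomes, was at 0.40 ± 0.17, and Oxa1l, which inserts new proteins into the inner membrane, at 0.12 ± 0.16.

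Genes of the other steps of mitochondrial translation were centred near 0. Of 17 translation factor genes, 7 were above 0, with a median of -0.02. An unadjusted p under 0.05 was found for 1 in each direction, against 6.53% of all tested genes higher and 6.73% lower in infants. Mtif3, an initiation factor, was at 0.46 ± 0.18 (SE; unadjusted edgeR p 0.026, adjusted 0.331), Lrpprc, which stabilises mitochondrial messenger RNAs, at -0.44 ± 0.19 (unadjusted p 0.041, adjusted 0.359), and Tufm, the elongation factor that brings tRNA to the ribosome, at 0.01 ± 0.20, which turned to -0.01 without scaling factors. Of 19 genes of mitochondrial tRNA synthetases, 9 were above 0, with a median of -0.05 and 0 with an unadjusted p under 0.05, and without infant 2 there were 5 above 0 with a median of -0.04. The 2 with the smallest p, Cars2 and Ears2, were at -0.23 ± 0.14 and -0.45 ± 0.29. Of 23 assembly factor and rRNA modification genes, 14 were above 0, with a median of 0.02, and without infant 2 there were 10, with a median of -0.05. With all libraries, 2 passed 0.05 before adjustment with the higher level in infants, against 6.53% of all tested genes. DESeq2 called 1 of the 23, against 1.57% of all. Malsu1, which keeps the subunits apart during assembly and binds Mrpl14, was at 4.74, 4.70 and 6.24 RPKM in adults and at 7.56, 9.55, 7.91 and 7.29 in infants, with a log2 fold change of 0.66 ± 0.18 (edgeR adjusted p 0.262, DESeq2 0.0430). Exons of Igf2bp3 on the other strand, 1 of the 2 genes called over the whole table and higher in infants, cover 40.5% of the Malsu1 exons. Nsun4, an rRNA methyltransferase, was at 0.31 ± 0.12.

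**Figure D5:**
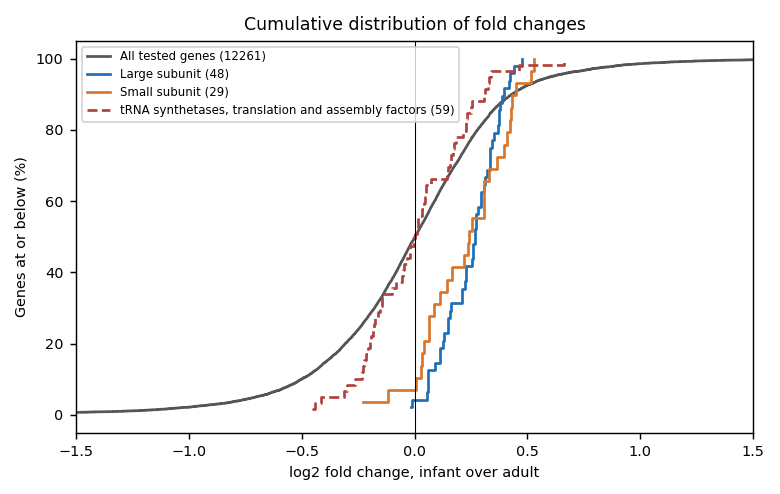
Share of genes at or below each log2 fold change, infant over adult (horizontal axis), for the large subunit genes, the small subunit genes, the genes of tRNA synthetases, translation factors and assembly factors together, and all 12261 tested genes. The curves of both subunits cross the level of 50% near 0.27 and 0.24, those of the other translation genes and of all genes near 0.

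The 13 messenger RNAs of the mitochondrial genome, which this ribosome translates, were tested, and their proteins were not measured. Of the 13, 11 were above 0, with a median log2 fold change of 0.12, and without infant 2 all 13 were above 0 with a median of 0.23. The lowest p was that of mt-Nd4 at 0.25 ± 0.12 (SE; edgeR adjusted p 0.400), followed by mt-Nd6 at 0.32 ± 0.20. The ribosomal RNAs mt-Rnr1 and mt-Rnr2 have no annotated exon in the tables, so that their exon reads are listed at 0 and they were not tested. Their gene rows held 687 to 1272 reads per library for mt-Rnr1 and 7419 to 11944 for mt-Rnr2, all counted as intron reads. The nuclear genes of the respiratory chain, whose products join the proteins made from those 13 messenger RNAs, were near the mitochondrial ribosomal protein genes in each library. Of 75 tested, 69 were above 0 with a median of 0.26, 19 passed 0.05 before adjustment with the higher level in infants, against 6.53% of all genes, and 22 had infants above all adults, against 7.97%. DESeq2 called 0 of them. The 80 cytosolic ribosomal protein genes had 48 above 0 and a median of 0.02, and infant 2 decided that value: without it 75 were above 0, with a median of 0.15.

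Genes of regulators of mitochondrial biogenesis lay the other way, 5 of 17 above 0 with a median of -0.15, and -0.10 without infant 2. Pprc1, a coactivator that works with NRF1 in human cells, was at 1.95, 1.97 and 1.89 RPKM in adults and at 1.24, 1.07, 1.11 and 1.31 in infants. All infants lay below all adults, and its log2 fold change was -0.69 ± 0.16 (SE; edgeR adjusted p 0.202, DESeq2 0.00448). Nrf1 and Gabpa, whose motifs were counted above, were at -0.15 ± 0.13 and -0.27 ± 0.16, and Yy1 was at 0.07 ± 0.20. Tfam, the main packaging and transcription factor of mitochondrial DNA, was at -0.06 ± 0.16, Polg, its DNA polymerase, at -0.44 ± 0.25, and Myc at -0.50 ± 0.32. Without infant 2, Tfam was at -0.0033, Polg at -0.26 and Myc at -0.42. Ppargc1a was too low to be tested, with 0 to 27 exon reads per library.

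The precision of single genes bounds what this comparison could show. The median standard error of the log2 fold change was 0.15 for the 77 genes and 0.21 for all genes, and the median difference of 0.26 was thus under 2 standard errors of a typical gene of the 77. Reads mapping to several places made up 7.40% to 8.51% of the reads of the 77 genes per library, over 20% in 8 genes and under 1% in 54, and were highest in Mrpl53 at 99.7% and Mrpl23 at 96.1%. With reads that map to 1 place only, 72 of the 76 genes that could be tested were above 0.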

How the data were processed

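Bulk RNA-seq libraries of sorted dendritic cells, 3 adult and 4 infant, were grouped by the age in their labels. Extraction used a column kit and a provider made Illumina libraries, per the labels' protocols. The submitters' processing notes list, without saying what each did, Cuffnorm and Cuffdiff 2.2.1, Cufflinks 2.2.1.0, TopHat2 2.1.0 and 2.0.14, TopHat and the mm10 build. The tool behind each table, the annotation and the strand setting: not given in the sources used here. Per the file headers, the authors deposited whole read counts per gene (exon, junction and intron, unique and total), RPKM values from total exon reads, and TPM values, which were not tested.

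The deposited total exon read counts were filtered by filterByExpr and TMM-scaled. In R 4.3.3, edgeR 4.0.16 compared the ages by glmQLFTest after a robust glmQLFit, with Benjamini-Hochberg adjustment across the 12261 genes tested and calls made under 0.05. The fit was tested on simulated data. A log2 fold change above 0 is a higher infant level, its standard error was derived from the F statistic, and CPM use TMM-scaled library sizes. In a library, 3 reads correspond to 0.134 to 0.166 CPM, which covers counting error only. Medians and counts over gene lists carry no test. Alternatives were DESeq2 1.42.0, limma 3.58.1 (voom, and limma-trend on log2(RPKM + 1) or log2(RPKM + 0.1)), other scalings and filters, unique reads, a replicate block, subunit membership by structure, leaving out each library, and, added after infant 2 was seen to stand apart, voom with library quality weights.

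The genes and lists were chosen with earlier results of these data known. Named genes are the 6 with the highest and the 6 with the lowest fold change, the 4 with the smallest p each way, the 5 with the highest and the 5 with the lowest RPKM, a set of genes always named, and the 2 with the smallest p of each pathway list. Mrpl55 and Mrpl47 were added to the list of genes with bacterial counterparts after values were seen. Gene overlaps, start distances and promoter windows come from GENCODE for GRCm38 and RefSeq, and coordinates of genes from the deposited tables. A further overlap between genes, beside those given, is not reported here.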

Additional observations from a re-analysis of the deposited data

Results flagged for a closer look

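The levels of the named genes were screened for libraries far from the rest of their group, which was possible for the 4 infants only, over 58 values. Chance picks about 1 in 20 groups in this way. The screen found 1: Tufm, the mitochondrial elongation factor that brings tRNA to the ribosome, was at 40.4 CPM in infant 2 and at 72.4, 71.7 and 72.7 CPM in infants 1, 3 and 4, so that the gap between infant 2 and the nearest other infant was 0.969 of the range of the group. Without infant 2, the log2 fold change of Tufm was 0.18 in place of 0.01. No named mitochondrial ribosomal protein gene stood apart in this way.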

How the results depend on the processing

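The number of mitochondrial ribosomal protein genes above 0 was 70 to 75 of 77 over the alternatives, and 72 of 76 with unique reads. With 0 of the 77 called by edgeR under each alternative but DESeq2, which called 1, the number of genes called over the whole table was 2 by edgeR and 193 by DESeq2, 121 by voom with library quality weights, 8 with no filter on low counts, and 1 in each of the fits on log2(RPKM + 1), log2(RPKM + 0.1) and log2(RPKM + 1) with no filter; the cause was not tested. Leaving out 1 library at a time gave 2 to 10 genes called, 10 of them without adult 1 and 4 each without adult 3, infant 1 or infant 2. It gave 0 genes of the 77 called in each case. The median of the 77 was then 0.19 to 0.32, that of the large subunit 0.20 to 0.32, that of the small subunit 0.18 to 0.28, and their difference -0.026 to 0.072. That difference was -0.017 with quality weights.

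Adult and infant libraries share replicate numbers in the labels, which give no common source for them, and same-numbered libraries did not deviate together (r of 0.033, -0.035 and 0.101 over all genes). A fit with the number as a block called 1 gene, 0 of the 77, with a median of 0.29 and a difference between subunits of 0.066. Infant 4 has no partner there.

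Of 54 named genes under up to 21 settings, 39 values changed sign, 7 passed the threshold and 1084 did neither. The changes of sign were in genes near 0. Mrps17 was at -0.00054 with the filter of 5 CPM, -0.014 with no filter, -0.016 on log2(RPKM + 1) with and without the filter, -0.017 on log2(RPKM + 0.1) and -0.032 without scaling factors, and Mrps28 at -0.016 without scaling factors. Tufm was at -0.025 with voom, -0.050 on log2(RPKM + 1) with and without the filter, -0.054 on log2(RPKM + 0.1), -0.0073 with no filter, -0.015 without scaling factors and -0.095 with the block. The block gave 0.0082 for Mrpl3 and -0.059 for Mrps22, and quality weights gave 0.03 for Mrpl52. Leaving out single libraries gave -0.21 to 0.043 for Mrps2, -0.13 to 0.15 for Mrpl52, -0.092 to 0.049 for Mrpl3, -0.058 to 0.12 for Mrps17, -0.095 to 0.21 for Mrps28, -0.052 to 0.20 for Mrps22, -0.041 to 0.28 for Mrps12, -0.061 to 0.18 for Tufm, -0.16 to 0.0083 for Tfam and -0.061 to 0.26 for Yy1. Each of the 77 genes had at least 155 reads per library.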

Other observations

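The 77 genes lie on 17 chromosomes, with 10 on chromosome 11, 8 on chromosome 17 and 7 on chromosome 6. Pseudogenes of the family had 5 rows in the tables and 0 exon reads in all libraries. Intron reads made up 2.91% to 5.13% of the gene reads of the 77 per library, against 4.45% to 6.36% for all genes, and both shares were highest in adult 2. The level of the 77 in infant 2 relative to the other 3 infants ran from -0.83 to 1.18 on the log2 scale, with a median of 0.21, against -0.01 for all tested genes.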
